A study of Mus musculus with 12 samples.

Results

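Of 14941 MBD2 peaks called in C2C12 cells at day 0, 4204 lay between genes, away from promoters and outside H3K4me3, a share of 28.1% (95% interval 27.4 to 28.9%). They were chosen by 3 measured or annotated properties. A peak entered when it did not overlap the 1 kb either side of any transcript start of the GENCODE M21 basic annotation, did not overlap an H3K4me3 peak of day 0, and had its summit in no annotated gene body. They are called intergenic peaks here. The other day 0 MBD2 peaks without H3K4me3 were mostly intronic (4579), and 2459 lay at promoters with H3K4me3. Being away from genes and from day 0 H3K4me3 is therefore how these peaks were found and not a result.

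C2C12 is a mouse myoblast line. The cells were profiled at day 0, at day 1 of differentiation in low serum, and at day 5 as myotubes and reserve cells parted from each other, with 1 library for each antibody and state and no genetic change or added agent in the labels. CUT&RUN uses an antibody to bring a nuclease to its target inside permeabilised cells, so that the released DNA fragments mark where the target sits. Each state had an MBD2 and an H3K4me3 library, and 4 IgG libraries were not analysed here. Because each library stands alone, differences between libraries could not be set against a replicate spread, and p-values are left out. Intervals are exact Clopper-Pearson 95% intervals, or order-statistic intervals for medians, and cover counting error only, with neighbouring peaks counted as if independent.

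MBD2 reads methylated CpG through its methyl-CpG binding domain and recruits the NuRD complex, which removes histone acetylation and slides nucleosomes. H3K4me3 marks the starts of active and poised genes, whereas distal enhancers usually carry little of it. In myoblasts many enhancers are bound by AP-1, a dimer of Fos and Jun proteins, by RUNX and TEAD factors, and by MyoD, the master regulator of muscle, which binds short E-box letters. Methyl-CpG readers are best known from methylated, silent DNA, although NuRD subunits have also been mapped at active enhancers in other cells.

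Sequences around the summits are shown first for 5 peaks that later results turn on, each 300 bases of the plus strand of mm10 from RefSeq GRCm38.p6, reaching past the peak's edge where the peak is short. Capitals mark the AP-1 letters TGANTCA. Camk1g, Tm4sf4 and Col5a1 name 3 of the 10 peaks of highest fold (chr1:193413942-193414241, chr3:57411495-57411794 and chr2:27809986-27810285). Has2 names the strongest peak of the largest cluster (chr15:56841590-56841889), and Des a peak that was under H3K4me3 in myotubes (chr1:75347457-75347756).
Camk1g: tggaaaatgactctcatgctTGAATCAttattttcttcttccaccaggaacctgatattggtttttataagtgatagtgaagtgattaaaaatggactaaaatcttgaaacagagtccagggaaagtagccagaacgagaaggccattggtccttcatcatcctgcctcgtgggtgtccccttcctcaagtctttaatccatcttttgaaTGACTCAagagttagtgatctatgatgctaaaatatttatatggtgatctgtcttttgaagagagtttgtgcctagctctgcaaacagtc
Tm4sf4: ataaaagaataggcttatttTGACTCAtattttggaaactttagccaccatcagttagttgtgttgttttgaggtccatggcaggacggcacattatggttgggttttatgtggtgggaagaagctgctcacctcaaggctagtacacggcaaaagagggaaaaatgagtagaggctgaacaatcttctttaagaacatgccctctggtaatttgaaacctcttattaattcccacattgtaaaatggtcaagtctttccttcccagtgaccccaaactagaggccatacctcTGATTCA
Col5a1: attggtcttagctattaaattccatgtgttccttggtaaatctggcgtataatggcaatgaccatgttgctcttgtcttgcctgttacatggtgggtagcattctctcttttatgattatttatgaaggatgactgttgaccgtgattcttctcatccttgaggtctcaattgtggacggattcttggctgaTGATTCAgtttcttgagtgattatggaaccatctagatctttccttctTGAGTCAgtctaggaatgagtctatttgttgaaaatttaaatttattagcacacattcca
Has2: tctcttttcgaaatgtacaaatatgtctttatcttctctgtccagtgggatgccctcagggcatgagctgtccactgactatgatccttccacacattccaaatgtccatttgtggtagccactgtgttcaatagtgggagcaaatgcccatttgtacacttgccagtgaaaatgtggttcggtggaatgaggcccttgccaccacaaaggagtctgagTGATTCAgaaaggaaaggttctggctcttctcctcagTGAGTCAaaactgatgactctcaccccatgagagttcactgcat
Des: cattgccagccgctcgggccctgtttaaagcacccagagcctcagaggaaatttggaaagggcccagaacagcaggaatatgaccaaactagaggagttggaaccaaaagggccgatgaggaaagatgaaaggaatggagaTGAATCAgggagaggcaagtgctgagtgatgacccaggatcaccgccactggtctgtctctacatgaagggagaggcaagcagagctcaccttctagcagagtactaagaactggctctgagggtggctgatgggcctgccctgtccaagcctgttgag

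The 4 MBD2 lists held 14941, 452, 287 and 111 peaks on chromosomes 1 to 19 and X, for day 0, day 1, myotubes and reserve cells, and the H3K4me3 lists held 19206, 17653, 26024 and 15910. Sequencing depth is not known from the deposited lists, and the lowest local background of the MBD2 lists was 0.360, 0.286, 0.776 and 0.947 fragments per base in that order. The cells' identity was checked at promoters. All 6 myoblast markers, among them Myod1 and Myf5, carried promoter H3K4me3 in every state, while 0, 8, 8 and 7 of 8 myotube markers did. Of 14 markers of blood, endothelium, fat, epithelium, glia and fibroblasts, 3, 5, 3 and 3 did so, among them Kdr and Pdgfra at day 0. How far myotubes and reserve cells were parted was not tested.

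The intergenic peaks were narrow and mostly low. Their median width was 382 bp, with the central 80% between 221 and 801 bp, and the widest spanned 4431 bp. The median pileup, the number of fragments over the summit, was 7, with a range of 4 to 350. The median fold enrichment over local background was 5.88 and ranged from 2.62 to 88.1. These heights are the authors' own values from 1 library and describe only that list. Of the 4204 peaks, 2200 stood on the lowest background of the list, and 896 (21.3%) had at most 5 fragments at the summit. Only 9 had a local background over 10 fragments per base (10.7 to 112), with pileups of 137 to 350.

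Few peaks sat within 100 bp of the limits of the definition. The lowest −log10 q of the intergenic peaks was 1.32 and the lower quartile 2.78. Of the intergenic peaks, 17 lay under 100 bp from a promoter window and 49 lay under 100 bp from a day 0 H3K4me3 peak, the nearest at 2 bp. Under 1 kb from these lay 162 (3.85%) and 212 (5.04%), and under 5 kb 769 (18.3%) and 614 (14.6%). Just outside the definition, 193 peaks with an intergenic summit overlapped a promoter window without H3K4me3, 14 of them by at most 100 bp. A further 1171 with an intergenic summit overlapped day 0 H3K4me3 away from promoters, 60 of them by at most 100 bp.

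Of the 5 windows shown above, which were chosen as examples after their letters were seen, 4 held 2 AP-1 matches each and the Des window held 1, starting 9 bases before the summit. Of the 10 peaks of highest fold, 5 held no match. Over all intergenic peaks, 1798 of 4204 held at least 1 AP-1 match in the 300 bases at the summit, 42.8% (41.3 to 44.3%). The letters TGANTCA are their own reverse complement, so both strands are read at the same time. As background the same windows were laid end to end over all sequence that could have held such a peak, 4336673 tiles covering 1306 Mb or 49.6% of the chromosomes, and 8.85% of these tiles held a match. The share was thus 4.83 times that of the tiles, and 4.09 times among windows without repeat-masked bases (46.1% against 11.3%). No match says only that the letters are not in the window.

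AP-1 matches gathered at the summits. In 50-base bins, their density stood between 1.64 and 1.98 per kb from 150 bases before to 150 bases after the summit, and at 0.318 per kb in the tiles. At 900 to 1000 bases it was 0.371 to 0.414 per kb. The band was flat across the summit rather than pointed. Of all intergenic peaks, 321 (7.64%) held 2 matches and 49 (1.17%) held 3 or more, against 0.455% and 0.0230% of tiles.

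**Figure D1:**
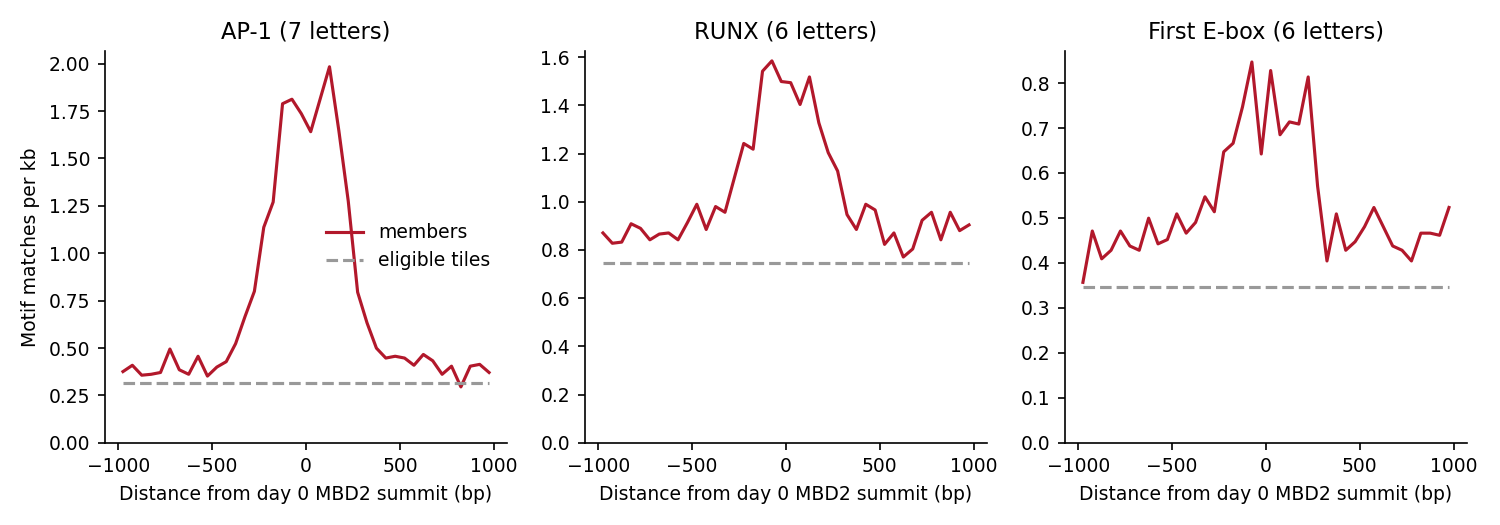
Motif matches per kb (y axis) in 50-base bins against the distance in bp from the day 0 MBD2 summit (x axis), for the intergenic peaks (members, solid line) and the mean of the eligible tiles (dashed line). AP-1 reads TGANTCA, RUNX TGTGGT and the first E-box CAGCTG, all on both strands. AP-1 density was 1.64 to 1.98 per kb within 150 bases of the summit, against 0.318 per kb in tiles, and the y axes differ between panels.

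Further sets of letters were also found more often at these summits than in the tiles. RUNX letters (TGTGGT, either strand) were in 35.2% of intergenic peaks (33.8 to 36.7%) and 19.4% of tiles. The E-box CAGCTG, the core preferred by MyoD, was in 18.9% of intergenic peaks and 9.43% of tiles. TEAD letters (GGAATG) were in 24.0% of intergenic peaks and 16.2% of tiles, and NFI letters (TTGGCA) in 20.5% of intergenic peaks and 14.3% of tiles. The other E-box searched, CAGGTG, a core bound by several E-box factors, went the other way with 10.8% of intergenic peaks and 16.1% of tiles. Among windows without repeat-masked bases, the ratio to tiles was 1.70 for RUNX, 1.68 for CAGCTG, 1.48 for TEAD, 1.25 for NFI and 0.607 for CAGGTG. Over all windows these ratios were 1.82, 2.01, 1.48, 1.43 and 0.669.

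Combinations were frequent. AP-1 and RUNX letters stood together in 655 intergenic peaks (15.6%), against 1.71% of tiles. RUNX letters were about as frequent in peaks with AP-1 (36.4%) as in peaks without it (34.3%). Of the 4 motifs AP-1, RUNX, TEAD and CAGCTG, 1013 intergenic peaks (24.1%) held none, against 56.4% of tiles.

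Rarer letters were uncommon in the intergenic peaks. CTCF letters (CAGGNGGC) were in 3.97%, MEF2 letters (CTAAAAATA) in 1.07%, ETS letters (CCGGAAG) in 1.05%, and the CRE (TGACGTCA) in 0.357%. The tiles held these in 2.90%, 0.792%, 0.681% and 0.139%. The CpG-containing letters of NRF1 (GCGCATGCG) were in 0.0476% of peaks and 0.0286% of tiles, and those of Kaiso (CTCGCGAG) in 0 of 4204 peaks (3 counts, the limit taken for a count of 0, would be 0.0714%, and the exact interval reaches 0.0877%), and in 0.00588% of tiles. For ETS, CTCF and the CRE, the ratio to tiles dropped to 1.04, 1.03 and 1.31 among windows without repeat-masked bases.

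The intronic peaks without H3K4me3 were close to the intergenic ones in these letters, with AP-1 in 42.2% (40.8 to 43.6%) and RUNX in 35.0%. Promoter peaks with H3K4me3 differed, with AP-1 in 10.7% (9.46 to 11.9%), RUNX in 14.4% and CTCF letters in 9.84%. AP-1 letters were also more frequent in the higher intergenic peaks. They were in 34.1% of the 1066 peaks with a fold under 4.5, 39.9% from 4.5 to 5.5, 43.5% from 5.5 to 7, 52.5% from 7 to 10, and 46.9% (42.7 to 51.2%) of the 550 with a fold of 10 or more. The share was thus highest below the top group.

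**Figure D2:**
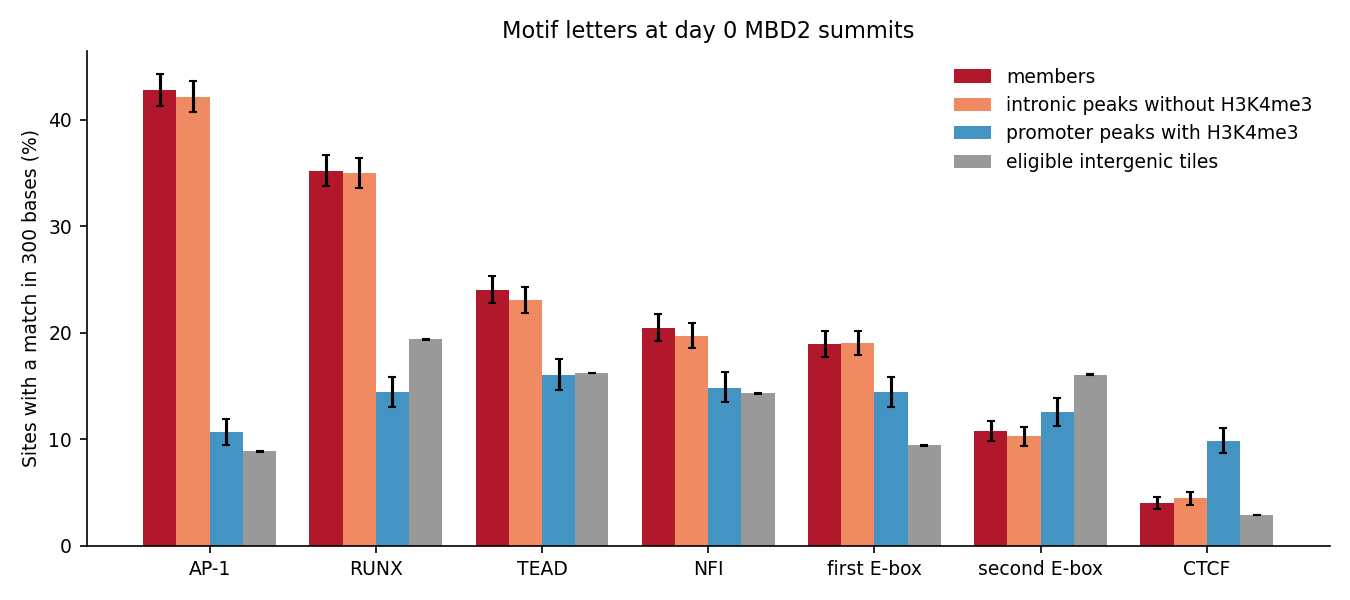
Share of sites (y axis, %) with at least 1 match in 300 bases for 7 motifs (x axis), in the intergenic peaks (members), intronic peaks without H3K4me3, promoter peaks with H3K4me3 and eligible intergenic tiles; the first E-box is CAGCTG and the second CAGGTG. Bars show 95% Clopper-Pearson intervals, and AP-1 stands at 42.8% in intergenic peaks, 42.2% in intronic peaks, 10.7% in promoter peaks and 8.85% in tiles.

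CpG, the pair of letters that MBD2 reads when methylated, was sparse. The intergenic peaks held a mean of 3.14 CpG in 300 bases (median 3, at most 25), against 2.07 in tiles and 15.5 in promoter peaks with H3K4me3. The ratio of observed to expected CpG was 0.217, against 0.167 in tiles and 0.658 at those promoter peaks. In 437 intergenic peaks (10.4%) the window held no CpG at all, compared with 22.5% of tiles, and only 91 (2.16%) held 10 or more. Base composition moved with this. GC content was 43.9% in the intergenic peaks and 40.7% in tiles, and repeat-masked bases made up 17.2% against 40.3%. Methylation itself was not measured.

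A pair of peaks shows the range of CpG, with capitals marking each CG pair. Slc1a3 names the peak of second highest fold (chr15:8806387-8806686), without AP-1 letters. Socs3 names a peak 19.2 kb downstream of Socs3 (chr11:117949823-117950122) that was under H3K4me3 in all 3 later libraries.
Slc1a3: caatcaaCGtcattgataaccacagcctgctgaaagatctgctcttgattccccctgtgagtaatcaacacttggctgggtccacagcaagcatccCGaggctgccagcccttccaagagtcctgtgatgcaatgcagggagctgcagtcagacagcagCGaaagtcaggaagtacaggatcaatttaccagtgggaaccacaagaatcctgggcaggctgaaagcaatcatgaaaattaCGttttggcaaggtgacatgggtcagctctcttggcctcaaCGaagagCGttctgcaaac
Socs3: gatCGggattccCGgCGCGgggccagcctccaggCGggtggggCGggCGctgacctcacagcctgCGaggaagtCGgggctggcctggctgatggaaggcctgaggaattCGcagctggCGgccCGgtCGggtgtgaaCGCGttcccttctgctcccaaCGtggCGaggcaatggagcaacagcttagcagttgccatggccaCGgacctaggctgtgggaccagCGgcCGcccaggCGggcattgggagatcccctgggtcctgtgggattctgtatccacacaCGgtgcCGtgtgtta

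The Slc1a3 window held 6 CpG and the Socs3 window 23, in a set where the median was 3. Socs3 encodes an inhibitor of cytokine signalling. Its peak had a fold of 10.3 at day 0 and lay under H3K4me3 of fold 11.97 at day 1, 4.72 in myotubes and 8.01 among reserve cells.

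The intergenic peaks lay nearer to transcript starts than the tiles did. The median distance from summit to the nearest start of any gene was 19.4 kb (18.5 to 20.2 kb), against 26.8 kb for tiles and 18.8 kb for intronic peaks without H3K4me3. Within 20 kb of a start lay 51.1% of intergenic peaks and 41.6% of tiles. Over 100 kb from any start lay 238 peaks (5.66%), against 14.0% of tiles. The definition keeps all of them out of the nearest 1 kb.

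Against protein-coding starts alone the gap to the tiles was wider. The median was 54.7 kb (51.0 to 58.1 kb) for intergenic peaks, 123 kb for tiles and 40.0 kb for intronic peaks. Over 200 kb from any protein-coding start lay 16.5% of intergenic peaks and 39.2% of tiles. Of the intergenic peaks, 62.3% (60.9 to 63.8%) lay upstream of their nearest named gene, against 60.2% of tiles. The 3 farthest from any start, at 480, 484 and 530 kb, all lay upstream of Brinp3 on chromosome 1 with folds of 7.16, 4.41 and 5.15, and none of them was under H3K4me3 in a later library.

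**Figure D3:**
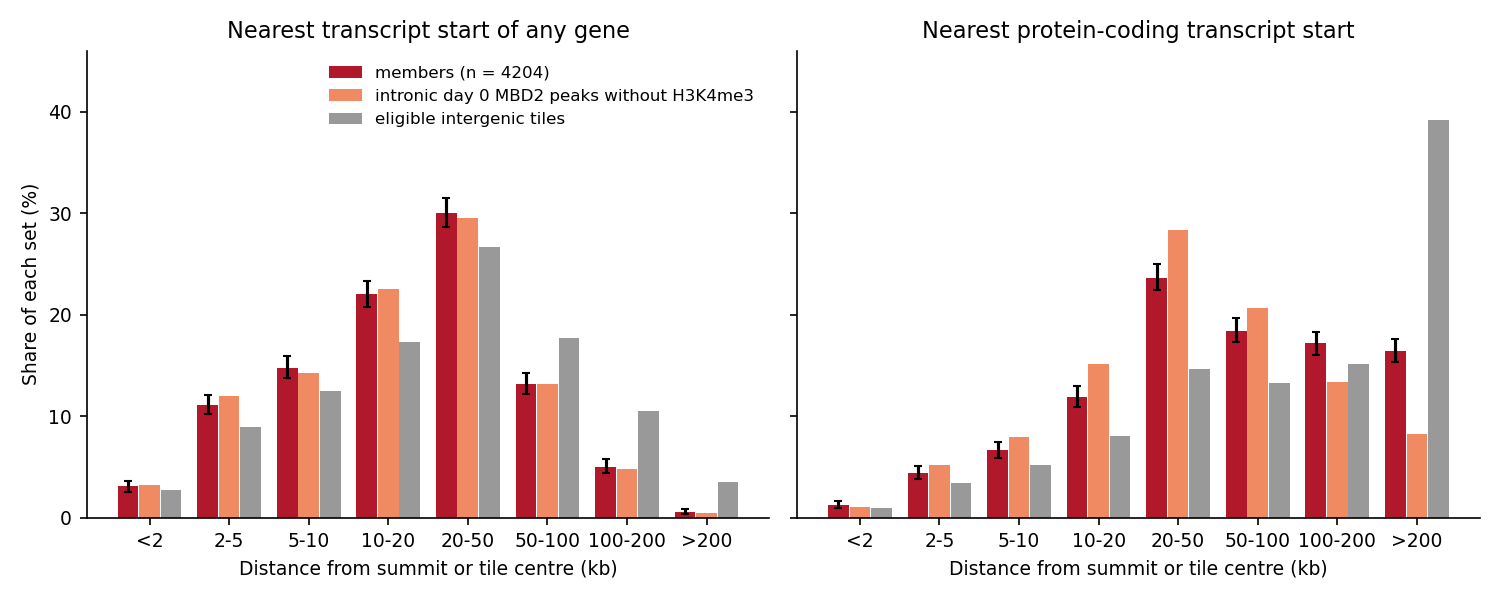
Share of each set (y axis, %) by distance in kb (x axis) to the nearest transcript start of any gene (left) and of a protein-coding gene (right), for the 4204 intergenic peaks (members, with 95% Clopper-Pearson intervals), intronic peaks without H3K4me3 and eligible tiles. Over 200 kb from a protein-coding start lay 16.5% of intergenic peaks and 39.2% of tiles.

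Density differed between chromosomes. Over the eligible sequence there were 3.22 intergenic peaks per Mb. Chromosome 15 had the most with 5.56, followed by 13 (4.80), 10 (4.69) and 11 (4.65), and chromosome 7 had 2.29. The X chromosome had 49 intergenic peaks or 0.448 per Mb. All day 0 MBD2 peaks followed the same outline, with 9.54 per Mb on chromosome 15, 1.04 on X and 5.67 over all chromosomes.

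The genes nearest to these peaks were often marked ones. The nearest protein-coding gene carried promoter H3K4me3 at day 0 for 73.3% of intergenic peaks (72.0 to 74.7%), against 53.5% of tiles and 79.5% of intronic peaks, while 57.0% of all 21728 protein-coding genes were so marked. Within 100 kb of marked genes there were 6.77 intergenic peaks per Mb of eligible sequence, and within 100 kb of unmarked genes 2.73. In all, 1871 of 19809 named protein-coding genes, or 9.45%, were the nearest gene of an intergenic peak within 100 kb. Nearness does not show which gene a site acts on.

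The list of matrix genes had the highest density of intergenic peaks. Of 32 genes of extracellular matrix and matricellular proteins, 15 had an intergenic peak within 100 kb, with 37 peaks in all and 23.3 per Mb, against 4.92 per Mb around all named genes. Col5a1, a chain of fibrillar collagen V, and Thbs2, a matricellular thrombospondin, had 7 each, with highest folds of 33.0 and 20.8. Col1a1 had 2 (at most 16 fragments at a summit). Most of these genes, 29 of 32, were marked by H3K4me3 at day 0, and among all marked genes 11.5% had an intergenic peak.

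Of the muscle lists, the myogenic regulators had the highest density of intergenic peaks. Among 15 of them, 5 (11.8 to 61.6%) had 12 intergenic peaks between them (13.6 per Mb). Among these 5, Myod1, the master regulator, had 3 (highest fold 9.50) and Myf6 1 (6.62). Of 52 sarcomere and contraction genes only 4 had a peak, 1 each, near Myoz2 (7.35), Mylk2 (5.88), Des (4.74) and Tnnt2 (3.91), a share of 7.69% (2.14 to 18.5%) with 4.97 per Mb. Of 20 myoblast fusion genes 4 (5.73 to 43.7%) had 1 each, Itgb1 (17.7), which encodes integrin beta 1, the fusogen gene Mymx (6.62), Cdh2 and Dock1 (5.88 each). The densities of the sarcomere and fusion lists, 4.97 and 3.83 per Mb, were near that around all named genes. The intervals of the 3 shares overlap, and the lists also differ in marking, with H3K4me3 at day 0 on 14 of 15 regulators, 14 of 52 sarcomere genes and 13 of 20 fusion genes. The part of that marking in the densities was not tested.

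MyoD's own locus held 3 intergenic peaks. Upstream of Myod1 there were 2, at 38.9 kb (chr7:46337227-46337792, fold 9.50) and 34.9 kb (chr7:46341201-46341669, fold 8.94). Both lay nearer to another annotated start, that of 1700025L06Rik, at 11.8 and 7.81 kb. Neither was under H3K4me3 or MBD2 in a later library. The peak 3.85 kb downstream of the start (fold 4.41) was under H3K4me3 of fold 4.05 in myotubes and in no other state. Myf5 and Myf6, which lie side by side, shared 1 peak 8.98 kb upstream of Myf6 (fold 6.62), and Runx1 had 1 within 50 kb, 16.4 kb upstream (fold 5.15). No intergenic peak lay within 50 kb of Myog, Pax7, Pax3, Mylpf, Ckm, Myh3, Ccnd1 or Fosl1.

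A pair of windows carries the MyoD-type E-box, with CAGCTG in capitals. Myod1 names the peak 34.9 kb upstream of that gene (chr7:46341410-46341709) and Lsm11 a peak 18.1 kb downstream of the start of Lsm11, a gene of histone RNA processing (chr11:45926682-45926981).
Myod1: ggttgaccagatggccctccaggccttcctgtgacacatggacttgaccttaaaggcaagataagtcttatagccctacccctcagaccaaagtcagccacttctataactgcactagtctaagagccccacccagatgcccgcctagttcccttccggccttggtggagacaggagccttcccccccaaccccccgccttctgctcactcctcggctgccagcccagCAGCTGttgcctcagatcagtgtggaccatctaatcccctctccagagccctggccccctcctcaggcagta
Lsm11: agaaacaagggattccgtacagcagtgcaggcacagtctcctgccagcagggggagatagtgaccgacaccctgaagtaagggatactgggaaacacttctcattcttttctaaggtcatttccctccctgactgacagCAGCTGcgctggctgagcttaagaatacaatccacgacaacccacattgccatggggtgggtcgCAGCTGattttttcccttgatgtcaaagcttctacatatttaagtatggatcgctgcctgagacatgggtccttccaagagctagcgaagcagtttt

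The Lsm11 window held 2 such E-boxes, 11 bases before and 53 bases after the summit, and 7 CpG. Its peak (fold 10.7) was under H3K4me3 of fold 12.4 at day 1, 12.6 in myotubes and 11.3 among reserve cells. The median fold of the whole list was 38.6 at day 1, 9.55 in myotubes and 39.9 for reserve cells, so only the myotube value lay above its list's median. The Myod1 window held 1 E-box and no AP-1 letters.

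Signalling lists followed. Of 28 TGF-beta and BMP genes 11 had 1 intergenic peak each (6.63 per Mb), with the highest folds near Ltbp1 (15.7), a binder of latent TGF-beta, Tgfbr2 (8.82), a receptor, the inhibitory Smad6 (8.09) and the follistatin-like Fstl1 (7.16). Of 20 Notch pathway genes 8 had 9 peaks (10.9 per Mb), among them the receptor Notch3 (8.82), the target Hes1 (7.35) and the ligand Dll1 (5.88). Of 27 Wnt genes 8 had 13 (7.69 per Mb), with 4 at the receptor gene Fzd7 (highest fold 14.7) and 1 each near Axin2 and Lef1 (8.09). The peak near Axin2, a feedback inhibitor, had 273 fragments at a fold of only 10.9 and so stood on a high background. Of 4 genes of the Runx list 2 had 5 peaks, Runx3 (highest fold 11.8) and Runx1 (9.31). At day 0 H3K4me3 marked 25 of 28 TGF-beta and BMP genes, 18 of 20 Notch genes and 24 of 27 Wnt genes. The TGF-beta and BMP density (6.63 per Mb) was near that of marked genes, and the Wnt density (7.69 per Mb) little above it.

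The remaining lists ranged widely, beside 9.45% of all named genes and 11.5% of marked genes with an intergenic peak. AP-1 and immediate early genes had peaks near 6 of 22 (11 peaks, among them 3 near Myc and 2 near Klf4), satellite cell genes near 7 of 20 (12, among them 2 near Ncam1 with a highest fold of 15.2), Hippo and TEAD targets near 5 of 20, and actin and SRF genes near 4 of 20 (8, with 4 near Vcl). Cell cycle genes had peaks near 4 of 30, housekeeping genes near 5 of 18, and neuronal genes near 4 of 16. Of the lists given here, only satellite cell genes had an interval (15.4 to 59.2%) above both background shares. Densities were 11.8 per Mb for AP-1 and immediate early genes, 8.23 for satellite cell genes and 9.64 for Hippo and TEAD targets. They were 11.7 per Mb for cell cycle genes, 28 of 30 of them marked at day 0, and 6.36 for neuronal genes. Lists of unrelated tissues had 1 of 12 for blood and 1 of 14 for liver. Their densities, 5.21 and 4.53 per Mb, were near the 4.92 per Mb around all named genes and near those of the sarcomere and fusion lists. MBD2's own NuRD and methylation reader list had 1 of 28, Zbtb38 with a fold of 5.88. By density the 4 Runx genes (22.4 per Mb) and the housekeeping and actin lists (20.8 and 20.7 per Mb) stood near the matrix list (23.3 per Mb), and H3K4me3 marked 4 of 4, 18 of 18 and 19 of 20 of their genes at day 0.

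The peaks of highest fold lay between 13.7 and 565 kb from the nearest named gene. The first, 43.8 kb upstream of Camk1g, a calmodulin-dependent kinase gene, had 122 fragments and a fold of 88.1. The next, 95.8 kb upstream of Slc1a3, a glutamate transporter gene, had 142 fragments and a fold of 81.9. Next in height were peaks near Angpt1, an angiopoietin gene (45.9), and Ankrd50 (44.9). Then came Tm4sf4 (40.4), Hpgd, which encodes a prostaglandin-degrading enzyme (36.6), Ccser2 (35.8), the syntrophin gene Sntg1 (34.6), the insulin receptor substrate gene Irs1 (33.8) and Col5a1 (33.0). None of the 10 was under H3K4me3 in a later library, and 5 held AP-1 letters.

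Linking summits up to 12500 bp apart gave 617 clusters that held 1415 intergenic peaks, 33.7% (32.2 to 35.1%), and the other 2789 stood alone. The share was 20.5% in the stronger 50% of the day 0 list, which holds fewer peaks, and 56.9% with links of up to 50 kb. Intronic peaks without H3K4me3 clustered to 31.6% (30.3 to 33.0%). Most clusters were pairs (483), 99 had 3 peaks, 26 had 4, 7 had 5, 1 had 6 and 1 had 7. Some neighbours were very close, since 444 peaks (10.6%) had another within 2 kb, and the median distance to the nearest other was 32.6 kb. Peaks in clusters were not higher than lone ones, with a median fold of 5.88 in both.

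The largest cluster held 7 peaks over 24.97 kb, about 138 kb upstream of Has2, which encodes a hyaluronan synthase. In order along the chromosome their folds were 3.68, 5.15, 7.89, 4.47, 3.68, 17.9 and 10.3. The strongest, whose sequence is shown above, held 2 AP-1, 3 RUNX and 2 TEAD matches and was under H3K4me3 of fold 5.18 in reserve cells only, whereas the other 6 were under none in any later library. A cluster of 6 over 22.6 kb lay upstream of Lclat1, a gene of cardiolipin remodelling, with folds of 3.91 to 11.0. Among the 7 clusters of 5, those with the highest summed fold lay near Sgk1, a serum-inducible kinase gene (7.89 to 17.6), Tex35 (4.30 to 16.9) and Slc44a3 (highest 12.2). In the Sgk1 cluster 1 peak of fold 11.7 was under myotube H3K4me3 of fold 7.65. With 9 intergenic peaks in all within 100 kb, Slc44a3 had more than any other named gene.

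**Figure D4:**
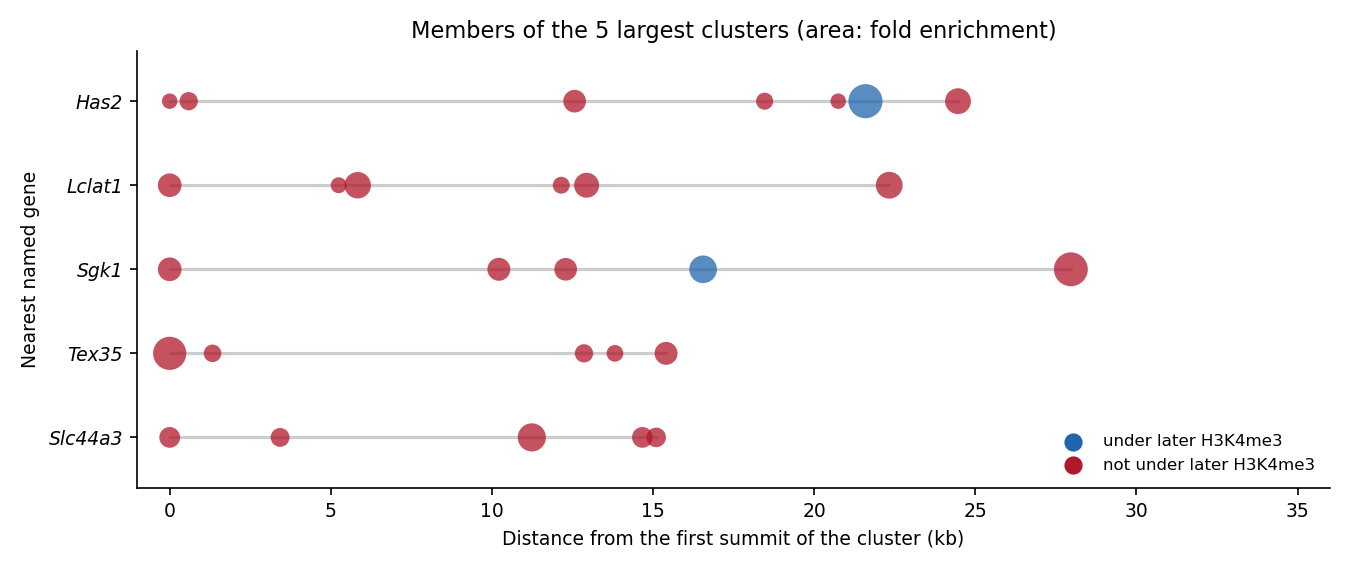
Position of each intergenic peak, as the distance in kb from the first summit (x axis), in the cluster of 7, the cluster of 6 and the 3 clusters of 5 with the highest summed fold (rows, named by the nearest named gene). Area is proportional to fold enrichment, from 3.68 to 17.9, and blue marks the 2 peaks under H3K4me3 in a later library, 1 near Has2 and 1 near Sgk1.

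H3K4me3 came to few of these sites. At day 1, 59 of 4204 intergenic peaks were under an H3K4me3 peak (1.40%, 1.07 to 1.81%). In myotubes there were 334 (7.94%, 7.14 to 8.80%), and in reserve cells 22 (0.523%, 0.328 to 0.791%). With at least 50% of the MBD2 peak covered, in place of any overlap, the shares were 0.714% at day 1 and 4.95% in myotubes. Over all day 0 MBD2 peaks without day 0 H3K4me3 the shares were 2.01%, 10.2% and 0.725%. That background holds the intergenic peaks too. It lay above the intergenic interval at day 1 and in myotubes and inside it in reserve cells. In myotubes the intronic peaks stood at 11.7% (10.7 to 12.6%). Tiles of 300 bases, shorter than most peaks, were under H3K4me3 in 0.0377%, 0.242% and 0.0182%.

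The 3 later lists differ in length, and the myotube list is the longest. With only the 15910 strongest peaks kept in every H3K4me3 list, also at day 0, the set grew to 4526 peaks, and the shares were 1.70% at day 1, 3.07% in myotubes and 1.17% among reserve cells. The myotube share remained the highest, but with a much smaller lead. The peaks added to the set overlap H3K4me3 in the full day 0 list. The reserve cell list, the shortest, lost no peaks. Its 53 sites of 4526, against 22 of 4204, thus differ by the added peaks alone. The part of list length in the smaller lead was not tested.

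By pattern, 3843 intergenic peaks were under H3K4me3 in no later library and 361 (8.59%) in at least 1. Myotubes alone accounted for 289, day 1 with myotubes for 34, day 1 alone for 16 and reserve cells alone for 9. All 3 later libraries shared 7. Of the 59 peaks of day 1, 41 were thus also under H3K4me3 in myotubes.

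The H3K4me3 over these sites was narrow and low. The 336 myotube H3K4me3 peaks over them had a median width of 502 bp and a median fold of 4.63, against 1218 bp and 9.55 for the whole myotube list. At 302 of them (89.9%) the H3K4me3 peak overlapped neither a day 0 H3K4me3 peak nor a promoter window, 32 overlapped day 0 H3K4me3 and 7 a promoter window. The MBD2 summit lay inside for 226 of the 334 sites.

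Nearness to day 0 H3K4me3 and CpG content both went with myotube H3K4me3. Under 1 kb from a day 0 H3K4me3 peak, 43 of 212 intergenic peaks (20.3%, 15.1 to 26.3%) were under myotube H3K4me3, at 1 to 5 kb 15.2%, at 5 to 20 kb 9.47%, and over 20 kb 5.45% (4.63 to 6.37%). The 32 myotube H3K4me3 peaks that also overlapped day 0 H3K4me3 were not counted by distance. By CpG in 300 bases, the share was 1.83% with none, 6.03% with 1 to 3, 11.96% with 4 to 9 and 20.9% (13.1 to 30.7%) with 10 or more. The 2 gradients stood side by side. Over 20 kb from day 0 H3K4me3 the share was 0.888%, 4.30% and 9.02% with 0, 1 to 3 and at least 4 CpG, and nearer than 20 kb it was 5.05%, 9.47% and 17.6%.

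Day 0 MBD2 height made less difference, with 5.72% under myotube H3K4me3 at a fold under 4.5 and 9.64% at a fold of 10 or more. Clustered peaks (8.27%) were close to lone ones (7.78%).

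**Figure D5:**
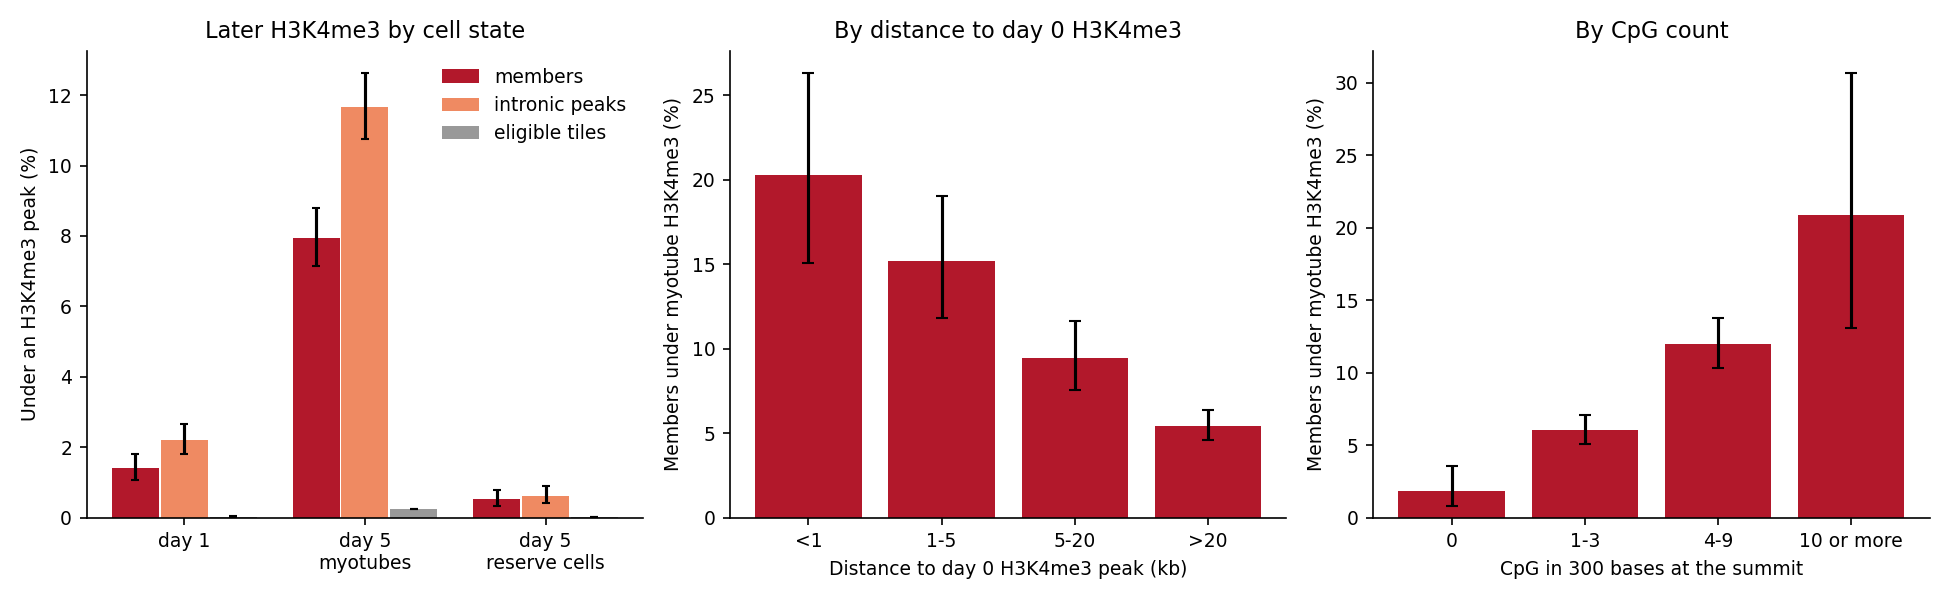
Left: share (y axis, %) of intergenic peaks (members), intronic peaks and eligible tiles under an H3K4me3 peak at day 1 and in day 5 myotubes and reserve cells (x axis). Middle and right: share of intergenic peaks under myotube H3K4me3 (y axis, %) by distance in kb to the nearest day 0 H3K4me3 peak and by CpG in 300 bases (x axes), falling with distance to 5.45% and reaching 20.9% at 10 or more CpG. Bars show 95% Clopper-Pearson intervals.

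The MyoD-type E-box was more frequent at the sites under myotube H3K4me3 than at the rest, with intervals apart, while AP-1 letters were about as frequent. CAGCTG was in 30.2% of the 334 sites (25.4 to 35.5%) and 17.9% of the other 3870 (16.7 to 19.2%). Read the other way, 12.7% of intergenic peaks with CAGCTG were under myotube H3K4me3 (10.5 to 15.2%) and 6.83% of those without (6.01 to 7.73%). The difference stood within CpG classes, with 8.41% against 4.70% under 4 CpG and 18.7% against 10.8% from 4 CpG up. AP-1 letters were in 42.2% of the 334 sites and 42.8% of the others. MEF2 letters were in 8 of the 334 (2.40%, 1.04 to 4.66%) and 37 of the others (0.956%, 0.674 to 1.32%), with overlapping intervals. The 334 sites also had a higher GC content, 48.3% against 43.5%. CAGGTG was in 14.4% of them against 10.4% of the others, and CTCF letters in 5.69% against 3.82%. RUNX and NFI letters went the other way, in 31.4% against 35.5% and 18.9% against 20.6%. The intervals overlap for each of these letters. The part of GC content in the CAGCTG difference was not tested.

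The 10 sites with the highest myotube H3K4me3 are named here by the nearest named gene, which is no test of a gene theme. Each H3K4me3 fold is that of the whole overlapping H3K4me3 peak, whose summit need not lie at the MBD2 peak. At these 10 sites the myotube H3K4me3 peaks were wide, from 1586 bp (Anp32e) to 7161 bp (Hspb7). The median was 502 bp over all such H3K4me3 peaks. The peak 50.9 kb from Sspn, the sarcospan gene of the dystrophin complex, and 2.61 kb from another annotated start was under H3K4me3 of fold 7.99 at day 1 and 33.4 in myotubes. Hspb7, a muscle small heat shock protein gene, had a peak 6.65 kb from its start under myotube H3K4me3 of fold 31.5. Des, the desmin gene, had a peak 12.7 kb upstream at fold 23.4, and Mylk2, the skeletal myosin light chain kinase gene, a peak 5.53 kb upstream at 21.6. Those 3 were under no H3K4me3 peak at day 1 or in reserve cells.

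The H3K4me3 near Rin3 reached a fold of 37.8 in myotubes and 3.98 at day 1, at only 1.38 kb from the start. Ptbp1, which encodes a splicing repressor, had H3K4me3 of fold 26.1 at day 1 and 26.6 in myotubes. The myotube values were 27.9 near Anp32e, 24.7 near Slc6a6, a taurine transporter gene, 23.7 near Dyrk2 and 20.8 near Nkx6-3. The highest at day 1 was 27.9 near Ifna13, an interferon gene, with none in myotubes or reserve cells, and then 12.9 near Tubb6. In reserve cells Krt8 (9.12), Dnase1l3 (8.01) and Wnt2b (7.20) followed Lsm11 (11.3), with Socs3 at 8.01.

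Most of the nearest genes could not gain H3K4me3, since they had it at day 0. The nearest protein-coding gene was marked at day 0 already for 76.9% of the 334 sites under myotube H3K4me3 (72.1 to 81.4%) and for 73.0% of the others. It gained promoter H3K4me3 in myotubes for 13 of the 334 (3.89%, 2.09 to 6.56%) and for 63 of the 3870 others (1.63%). Over all intergenic peaks the figure was 1.81%, over tiles 1.96%, and 2.34% of all protein-coding genes gained it. Among nearest genes without H3K4me3 at day 0, the gain was seen for 13 of 77 under myotube H3K4me3 (16.9%, 9.31 to 27.1%) and for 63 of 1044 others (6.03%, 4.67 to 7.66%), against 5.44% of all protein-coding genes without it at day 0. Neighbouring sites can share a gene, and the 77 sites named 73 genes.

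MBD2 itself was seldom called at these sites again. At day 1, 59 intergenic peaks overlapped an MBD2 peak (1.40%, 1.07 to 1.81%), in myotubes 15 (0.357%) and in reserve cells 11 (0.262%). Over all day 0 MBD2 peaks the shares were 2.68%, 1.01% and 0.475%. The later MBD2 lists are so short that a peak missing from them does not show that MBD2 left. Leaving out the 9 sites of high background, the shares were 1.22%, 0.286% and 0.0953%, so 7 of the 11 sites in reserve cells were of that kind.

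In all, 69 intergenic peaks had MBD2 in a later library. Day 1 MBD2 was called at 6.36% (4.47 to 8.74%) of those with a fold of 10 or more and at 0.657% (0.264 to 1.35%) of those under 4.5. For the same groups the shares were 0.727% and 0.375% in myotubes and 0.727% and 0.563% in reserve cells, with overlapping intervals. Slc1a3 had folds of 16.4 at day 1 and 6.20 in reserve cells with no call in myotubes. At day 1 the folds were 10.5 near Col5a1, 6.997 near Tm4sf4, 6.73 near Camk1g and 8.55 near Resf1. AP-1 letters were in 17 of the 69 (24.6%, 15.1 to 36.5%), below the 42.8% of all intergenic peaks. Of the 9 sites of high background, none of which held AP-1 letters, 8 had MBD2 at day 1 and so are among the 69. Only 17 intergenic peaks had both marks later, among them those near Sfta2, under H3K4me3 in all 3 later libraries (folds 9.23, 17.1 and 4.73), and near Sema4f and Resf1, both under myotube H3K4me3 (5.81 and 6.30).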

How the data were processed

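Per the submitters' processing notes, Trim Galore, Bowtie2, SAMtools and MACS2 made the peak lists, with mm10 as the build. Their versions and settings, and whether IgG served as control, were not stated in what was used here. The titles shorten the day 5 fractions, taken here as myotubes and reserve cells after the design text. The deposited pileup is a signal, the fragments over the summit, and the deposited fold enrichment is a ratio to local background, per the file headers. The −log10 p and −log10 q columns deposited by the authors have damaged names and were told by the MACS2 column order. Local background was computed as (pileup + 1)/fold − 1.

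Peaks on chromosomes 1 to 19 and X were used. Coordinates were matched to GENCODE M21 basic, and sequence to RefSeq GRCm38.p6, which has the mm10 chromosomes. Tiles of 300 bases cover all sequence outside gene bodies, 1 kb promoter windows and day 0 H3K4me3. An overlap is 1 bp or more. The 18 gene lists, 12 motifs, the set of peaks and the comparisons were chosen with earlier results of these data known. Named peaks are the 10 of highest fold, those of highest later H3K4me3 (5 at day 1, 10 in myotubes, 5 in reserve cells), the 5 largest clusters with ties taken by summed fold, the 3 farthest from a start, 10 with later MBD2, up to 4 genes per list, and those within 50 kb of 12 loci. A peak is named after the nearest protein-coding gene with a full name. Python 3.11.15, numpy 2.4.6, pandas 2.3.3 and scipy 1.17.1 were used, and the scripts were tested on simulated data. Alternatives changed the thresholds of the lists, the promoter window, the annotation, the overlap, the cluster distance and the sequence window.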

Additional observations from a re-analysis of the deposited data

How the results depend on the processing

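Every share rests on 1 library per state, and most peaks rest on 4 to 10 fragments, so peaks near the calling threshold limit every count. Of 92 values under alternative settings, 60 stayed within the 95% interval of the value reported and 32 moved outside it. The median CpG count stayed at 3 under each of its 8 settings.

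The share of day 0 MBD2 peaks that were intergenic without H3K4me3 was 27.2% among the stronger 50% of peaks by −log10 q and 27.2% by fold. It was 24.0% with 5 kb promoter windows, 34.8% with protein-coding genes alone, 26.7% with no day 0 H3K4me3 within 1 kb, and 30.3% with 15910 peaks in every H3K4me3 list. The median distance to a start was 20434 bp and 20423 bp among the stronger 50% by −log10 q and by fold, and 23248 bp with 5 kb windows. It was 56939.5 bp with protein-coding genes alone defining the set, and 54747 bp to protein-coding starts with the set unchanged. The clustered share was 20.5% under each of both stronger subsets, which hold fewer peaks, 35.96% with protein-coding genes alone, 56.9% with links of 50 kb, and 43.3% when any day 0 MBD2 peak could link.

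Under H3K4me3 at day 1 the share was 1.05% with no day 0 H3K4me3 within 1 kb and 0.714% when at least 50% of the MBD2 peak had to be covered. In myotubes it was 9.24% and 9.36% among the stronger 50% by −log10 q and by fold, 4.95% with 50% coverage, and 3.07% with lists of equal length, which put reserve cells at 1.17%. For later MBD2, the stronger 50% by −log10 q and by fold gave 2.75% and 2.46% at day 1, and the first gave 0.590% in myotubes. Coverage of 50% gave 0.571% at day 1 and 0.190% in myotubes, and leaving out high local background gave 0.0954% in reserve cells. AP-1 letters were in 48.8% and 49.0% of the stronger 50% by −log10 q and by fold, and in 14.9% of 100-base windows. The cause of the other changes was not tested. No paired analysis was possible because each antibody and state has 1 library.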
